A study of Mus musculus with 68 samples.

Results

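Drd2, Kcnj6, Kcnj9, Kcnj3, Kcnj5, Gnao1, Gnai1, Gnai2, Gnb1 and Ntsr1 encode the dopamine D2 autoreceptor, the 4 subunits of G protein-gated inward rectifier potassium (GIRK, or Kir3) channels, G protein subunits between them, and the receptor for neurotensin. The 10 genes were taken by symbol from the 36172 genes of the table, and all 10 had a count in at least 1 of 68 cells. The cells were dopamine neurons of the ventral tegmental area (VTA) of 12-month-old male and female mice. Each was drawn into the pipette as a nucleated patch after recording (Patch-seq), and its polyadenylated RNA was amplified for 28 PCR cycles into 1 library. The 33 3xTg cells came from mice homozygous for the transgenes of the line, APPSwe and TauP301L among them, a model of Alzheimer's disease, and the 35 WT cells came from non-transgenic mice of a line bred apart from it, with the hybrid background in common (embryos of C57BL/6;129×1/SvJ;129S1/Sv, placed in B6;129). No label gives the mouse of a cell, and each genotype therefore counts as 1 sample. No test between genotypes was possible, an SD over cells is no error over animals, and line and genotype cannot be told apart.

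When dopamine is released from the cell body and dendrites, it binds D2 receptors on the same and neighboring dopamine neurons. The receptor activates G proteins of the Gi/o class, whose beta-gamma dimers bind and open Kir3 channels, and the outward potassium current slows firing. Kir3 channels are tetramers. In midbrain dopamine neurons the subunit GIRK2, from Kcnj6, is known to form functional channels by itself or with GIRK3, from Kcnj9, whereas GIRK1, from Kcnj3, is the common partner in many other neurons. Neurotensin acts on NTSR1, a receptor coupled mainly to Gq, which excites dopamine neurons and dampens the D2 response.

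The 4 subunits share the pore, and the stretch of coding sequence around the selectivity filter is printed because the filter passes potassium in all 4 and because the bases that differ are those by which reads of the 4 genes are told apart. Capitals mark the 15 bases that code the filter. The sequences are from GENCODE release M21, in GRCm38, 5′ to 3′ on the coding strand.
Kcnj6: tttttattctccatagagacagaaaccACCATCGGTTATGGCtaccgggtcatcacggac
Kcnj9: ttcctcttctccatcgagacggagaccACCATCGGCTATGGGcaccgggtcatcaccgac
Kcnj3: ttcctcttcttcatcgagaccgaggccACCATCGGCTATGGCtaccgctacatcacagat
Kcnj5: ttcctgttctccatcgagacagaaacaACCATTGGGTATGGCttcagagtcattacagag
The Kcnj6 stretch is at chr16:94832759-94832818 on the minus strand, in exon 3 of 4 of the transcript used. Kcnj9 has it at chr1:172326166-172326225, minus strand, also in exon 3 of 4. For Kcnj3 it lies at chr2:55437600-55437659 on the plus strand, in exon 2 of 4, and for Kcnj5 at chr9:32322541-32322600 on the minus strand, in exon 3 of 4. Between 45 (Kcnj3 and Kcnj5) and 50 (Kcnj6 and Kcnj9, and Kcnj9 and Kcnj3) of the 60 bases were the same in a pair, and 12 to 14 of the 15 filter bases. Over whole coding regions, 65.4% to 70.1% of aligned bases were the same. No local alignment of at least 90 bases and 90% identity, the lowest identity at which the authors aligned reads, was found between 2 of the 10 genes. Identity was taken over whole alignments, so a 90-base stretch at 90% inside a longer alignment of lower identity would be missed. Of transcripts of other genes, Gm26794 shared 31.1% of the Kcnj3 transcript, Gnb1-ps2 10.7% of Gnb1 and Gm36937 4.46% of Kcnj9. Gm26794 and Gm36937 are not among the genes of the table, whereas Gnb1-ps2 is, with a count in 0 of the 68 cells.

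A 3xTg cell had between 676556 and 1678624 counts and a WT cell between 492505 and 1327367. The median 3xTg cell had 8511 genes with a count (lowest 3695, highest 10426), whereas the median WT cell had 7476 (lowest 3770, highest 10039). All 68 cells had counts of Th, Slc6a3, Slc18a2 and Ddc, which make and carry dopamine. The study kept cells without Pvalb, Tmem119, P2ry12 and Aldh1l1, yet 5 cells of each genotype had at least 1 count of 1 of these. Among markers of other cells, 2 of 3 astrocyte genes, all 5 microglial genes, all 3 oligodendrocyte genes, 1 of 3 endothelial genes and all 4 GABA neuron genes had a count in some cell, while Aldh1l1, Cldn5 and Pecam1 had none. Summed over the microglial genes, the normalized count per cell reached 2992 in 3xTg and 4048 in WT, with medians of 23.5 and 13.1 and cells at 0 in both. Cx3cr1 was counted in 29 3xTg and 30 WT cells at 14.2 and 11.8 CPM, whereas C1qb (76.2 and 321 CPM) and C1qa (16.8 and 50.3 CPM) were counted in fewer cells and had lower sums in 3xTg. The astrocyte sum reached 64.1 in 3xTg and 1066 in WT, that of oligodendrocyte genes 124 and 293, and that of the endothelial genes stayed under 1, with medians under 1 for all 3 lists. For GABA neuron genes the sum lay between 1.76 and 68.3 in 3xTg cells (median 23.5) and between 4.48 and 386 in WT cells (median 29.3). Gad2 was counted in all 33 3xTg and 35 WT cells, at medians of 20.7 and 21.4. Gad1 was counted in 5 and 6 cells, Slc32a1 in 2 and 3 and Pvalb in 1 and 2. Of the Gad2 transcript 3.43% is like transcripts of 950 other genes, and 77.9% of its counts were not whole numbers. Beyond leaving out the cells with 1 of the study's 4 markers, the part of these genes in the values below was not tested.

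Label numbers of the cells follow each other by genotype in 5 runs. These are WT 1 to 22 (17 cells), 3xTg 24 to 55 (21 cells), WT 57 to 74 (15 cells), 3xTg 76 to 92 (12 cells) and WT 94 to 96 (3 cells), and what the numbers mark is not stated. The median number of genes with a count per run was, in that order, 5233, 7648, 8441, 9308 and 6216. Values are therefore also given for the first runs (WT 1 to 22 and 3xTg 24 to 55) and the second runs (WT 57 to 74 and 3xTg 76 to 92). Counts were divided by size factors, and the level of a gene in a cell is this normalized count. For the difference between genotypes, log2(normalized count + 1) was averaged over the 3xTg cells and over the WT cells, and the second mean was subtracted from the first, which understates the change of low genes. Its median over 3988 expressed genes (a normalized count of at least 1 in 80% of the cells of a genotype) was 0.47, so differences are also given relative to that median gene. A gene was called past the fold at a relative difference of at least 1 in size. Counts summed over the cells of a genotype, as counts per 1000000 counts of the genotype (CPM), give the second measure. The intervals given for sums (exact Poisson) and for shares of cells (exact Clopper-Pearson) are at 95% and cover counting error only. Those of sums take amplified counts as independent molecules, those of shares take cells as independent draws, and neither covers the spread between mice.

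The 10 genes spanned a wide range of levels. Per kilobase of transcript, in summed CPM, Gnb1 was first in both genotypes (264 in 3xTg and 222 in WT), followed by Gnao1 (37.01 and 33.7) and Ntsr1 (35.5 and 22.3). Gnai2 (29.1 and 13.5) and Gnai1 (14.5 and 20.8) exchanged places between the genotypes. Drd2 came next at 10.1 in 3xTg and 10.9 in WT, ahead of Kcnj6 (7.28 and 9.27), Kcnj9 (2.19 and 6.18), Kcnj5 (0.808 and 1.22) and Kcnj3 (0.0836 and 0.327). Cell by cell, and per kilobase, Gnb1 lay above Gnao1 in 33 of 33 3xTg and 34 of 35 WT cells. For the other neighbors down to Kcnj5 the order was mixed over cells, as for Gnao1 and Ntsr1, where Gnao1 was the higher in 16 of 33 3xTg and 25 of 35 WT cells. Only Gnao1, Gnb1 and Ntsr1 were among the expressed genes. Ntsr1 passed that filter through 3xTg alone, and of 1076 genes that did so 417 were past the fold higher and 0 lower, so a higher call of such a gene is favored by the filter.

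Relative to the median expressed gene, 2 of the 10 genes were past the fold, Ntsr1 higher and Kcnj9 lower in 3xTg, against 763 of 3988 expressed genes (19.1%). By summed counts, where the log2 ratio itself had to be at least 1 in size, 3 of 10 were past it (Kcnj9 and Kcnj3 lower, Gnai2 higher), none of them an expressed gene. Of the 15368 genes with a count in both genotypes 4633 (30.1%) were past it, a share like that of the 10 genes, and of the 3988 expressed genes 257 (6.44%). Taken relative to the median of all 17940 genes with a count (0.13), by which 2398 of them (13.4%) were past the fold, Drd2 joined Ntsr1 and Kcnj9. The median difference of the 10 genes was 0.93 by the mean over cells and −0.23 by summed counts, where the medians of all expressed genes were 0.47 and −0.03. By the mean 6 of 10 genes were above 0 and by the sums 4 of 10, and of all expressed genes 70.9% and 47.9%. For Drd2 and Gnai1 the sign itself turned, the mean over cells being higher and the sum lower in 3xTg.

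**Figure D1:**
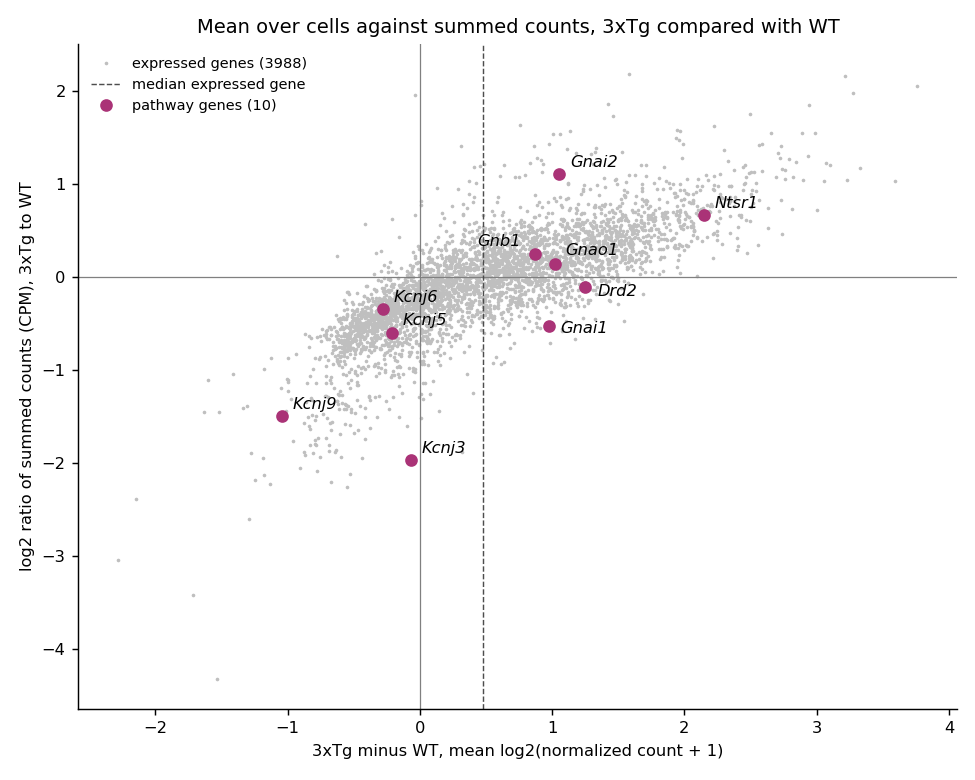
Genotype difference of the mean log2(normalized count + 1) over cells (horizontal axis, 3xTg minus WT) against the log2 ratio of summed counts as CPM (vertical axis, 3xTg to WT). Grey points are the 3988 expressed genes, purple points the 10 genes, and the dashed line is the median expressed gene at 0.47. Ntsr1 lies far to the right and Kcnj9 far to the left and low, while Drd2 and Gnai1 lie to the right of 0 but below 0 on the vertical axis.

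Drd2, the D2 receptor gene (chr9:49340662-49407214, plus strand, mm10 as all gene positions here), was counted in 22 of 33 3xTg cells (66.7%, 48.2 to 82.04), as against 13 of 35 WT cells (37.1%, 21.5 to 55.1). In 3xTg its level was 0 at the lowest, 15.04 at the median and 115 at the highest, and in WT it was 0, 0 and 219. A count was thus found in a larger share of 3xTg cells, though among the 34 cells with fewer genes detected than the median cell it was found in 5 of 14 3xTg and 7 of 20 WT cells. The 2 highest cells, WT 94 at 219 and WT 5 at 171, were WT, and the genotypes overlapped over the whole 3xTg range. Among the cells with a count, the median was 31.6 in 3xTg and 44.3 in WT. The summed counts were alike, at 946 in 3xTg (25.8 CPM, 24.2 to 27.5) and 943 in WT (27.7 CPM, 25.98 to 29.5). The difference of the mean was 1.25 on the log2 scale, or 0.77 relative to the median gene, and the log2 ratio of the sums was −0.11. WT 94 held 22.3% of the WT sum, and without it the ratio was 0.21.

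The detection of Drd2 differed between runs of one genotype too. Counts were found in 3 of 17 cells of WT 1 to 22, 12 of 21 of 3xTg 24 to 55, 9 of 15 of WT 57 to 74, 10 of 12 of 3xTg 76 to 92 and 1 of 3 of WT 94 to 96. The relative difference was 1.27 in the first runs and 0.52 in the second. The log2 ratio of sums was 0.43 and −0.09. The cells were also split at the median number of genes detected, 8056.5, into 34 with more and 34 with fewer. Among those with more genes, Drd2 was counted in 17 of 19 3xTg and 6 of 15 WT cells, with summed levels of 32.9 and 18.8 CPM. Among those with fewer it was counted in 5 of 14 and 7 of 20, at 15.3 and 33.9 CPM. Relative to the median gene, the genotype difference was 1.88 in the cells with more genes and −0.43 in those with fewer. The signs were thus opposite, by the sums as well. With all cells brought to 700471 counts by thinning (31 3xTg and 30 WT cells), 70.97% and 43.3% had Drd2.

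Other dopamine receptors were nearly absent. Drd1, a Gs-coupled receptor, had counts in 10 3xTg and 8 WT cells at 0.654 and 0.382 CPM, Drd3 in 1 WT cell, and Drd4 and Drd5 in none of the 68 cells. Among 20 other receptors that couple to Gi/o, 15 had a count and 1 was expressed, Gabbr1 of the GABAB receptor, at 168 CPM in 3xTg and 170 in WT. None was called past the fold.

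**Figure D2:**
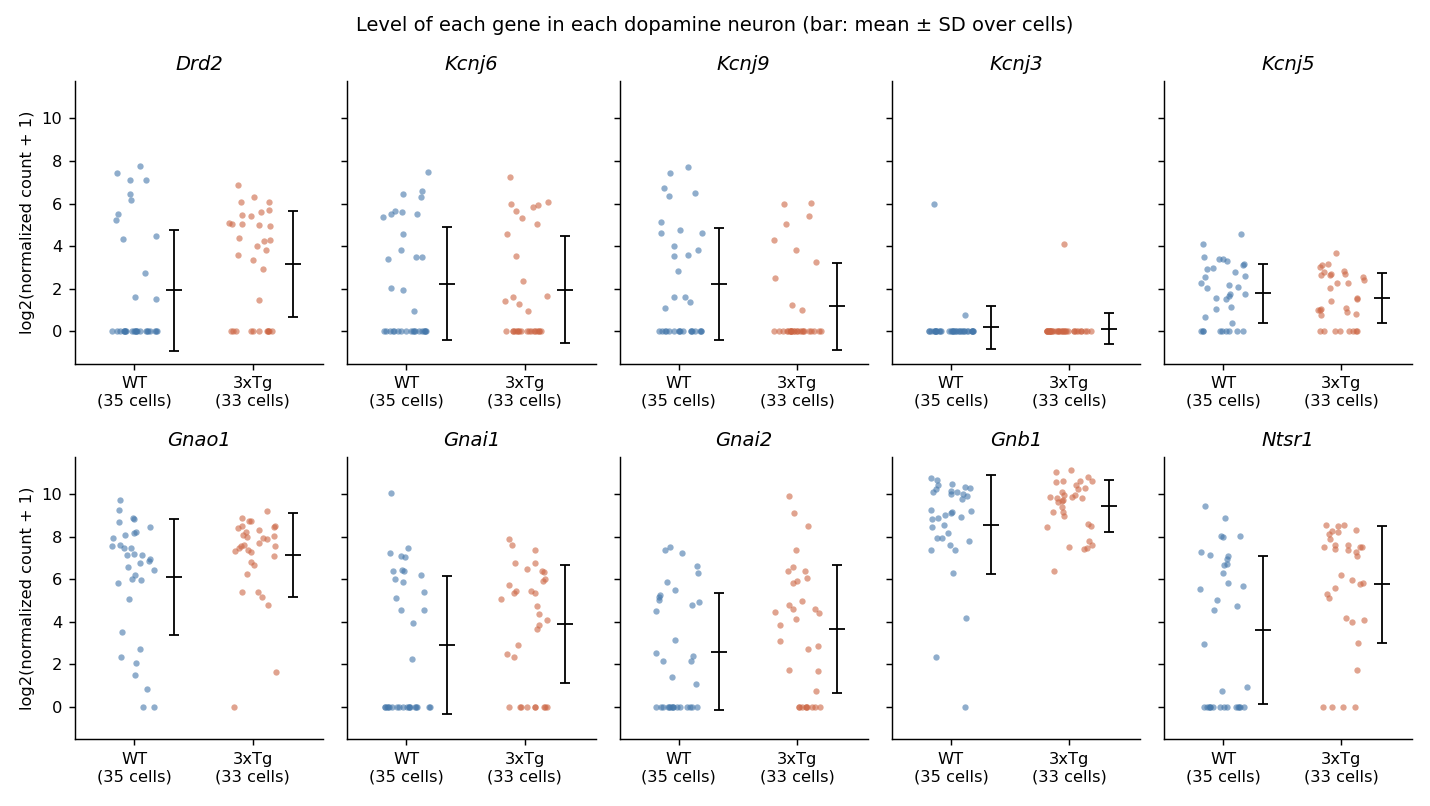
Level of each of the 10 genes in each cell, as log2(normalized count + 1), for WT (blue, 35 cells) and 3xTg (orange, 33 cells). The bar beside each group is the mean ± SD over cells, which is not an error over animals. Cells at 0 have no count. Drd2, Gnai1 and Ntsr1 have fewer cells at 0 in 3xTg, Kcnj9 has more, and Kcnj3 lies above 0 in 3 cells alone.

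Kcnj6 (chr16:94748683-94997696, minus strand), which encodes GIRK2, was counted in 16 of 33 3xTg cells (48.5%, 30.8 to 66.5) and 17 of 35 WT cells (48.6%, 31.4 to 66.01). Its level reached 151 in 3xTg and 176 in WT, with the lowest and the median cell at 0 in both. The genotypes overlapped throughout. Summed counts were 828 (22.6 CPM, 21.04 to 24.1) and 977 (28.7 CPM, 26.9 to 30.6). The mean differed by −0.28, or −0.75 relative to the median gene, and the log2 ratio of sums was −0.35. Single cells weighed heavily in the sums, 28.1% of which came from 3xTg 31 and 25.8% from WT 2. The share of cells with at least 10 counts was 30.3% in 3xTg and 40% in WT, a gap not seen at 1 count. Without WT 2 the ratio was 0.05, and without 3xTg 31 it was −0.79.

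Kcnj6 was counted in more cells of the second runs in both genotypes. Counts were found in 5 of 17 and 7 of 21 cells of the first runs (WT and 3xTg) and in 11 of 15 and 9 of 12 cells of the second, and in 1 of 3 cells of WT 94 to 96. On the log2 scale the mean of 3xTg minus that of WT was 0.05 within the first runs and −0.32 within the second (−0.34 and −0.92 relative), and WT 57 to 74 was higher than WT 1 to 22 by 1.92 and 3xTg 76 to 92 higher than 3xTg 24 to 55 by 1.56 (1.43 and 1.09 relative). Detection also moved with the number of genes detected. Of the 34 cells with more genes, a Kcnj6 count was found in 15 of 19 from 3xTg and 13 of 15 from WT, and of the 34 with fewer, in 1 of 14 and 4 of 20. Set within these groups, the relative difference was −1.01 and −1.18, past the fold lower in each, though not over all cells together (−0.75). Over the 68 cells the Spearman correlation of the Kcnj6 level with the number of genes detected was 0.63 (0.66 within 3xTg and 0.64 within WT). It is a description of cells whose mice are not known, and the part of depth or of the runs in Kcnj6 was not tested beyond these values.

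**Figure D3:**
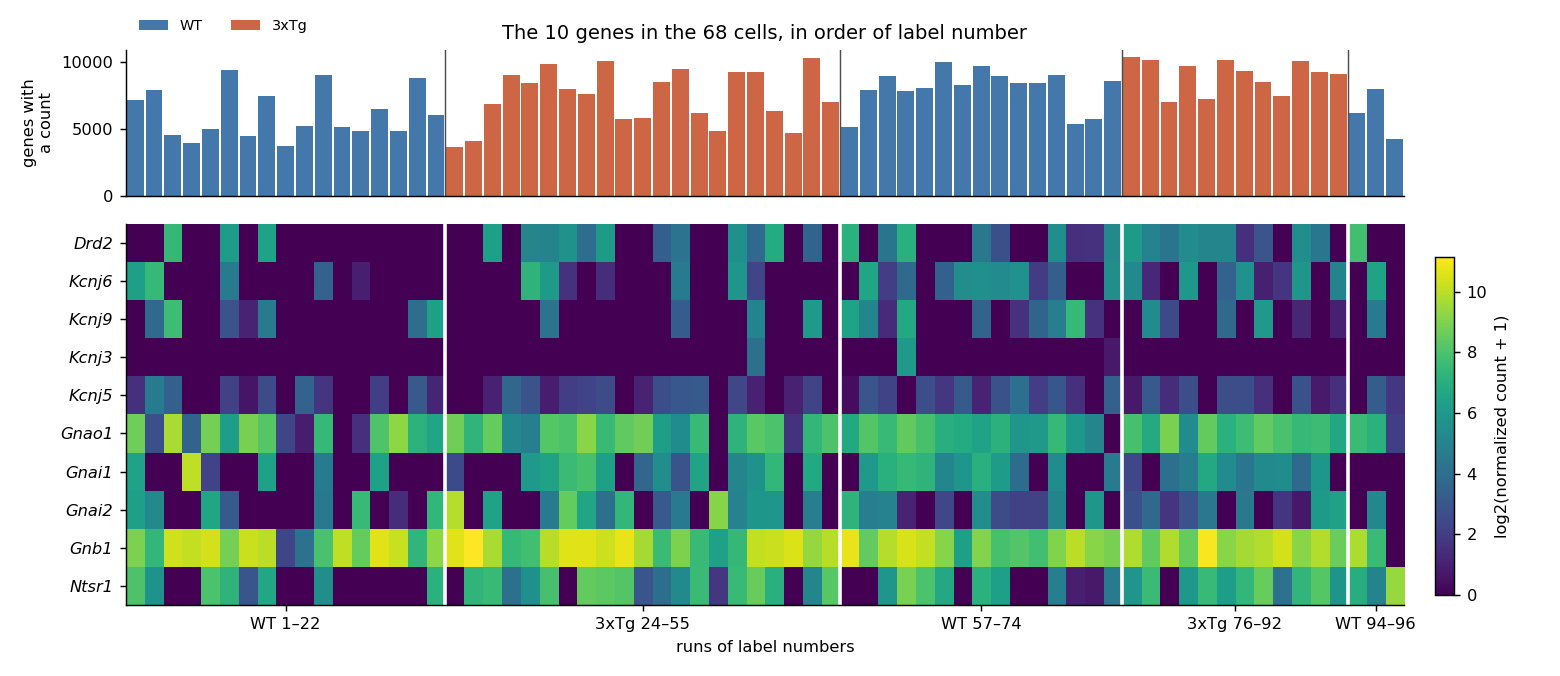
The 10 genes (rows) in the 68 cells in order of label number, as log2(normalized count + 1) by color, with the number of genes with a count per cell above (blue WT, orange 3xTg). White lines separate the 5 runs. Kcnj6 is at 0 in most cells of WT 1–22 and 3xTg 24–55 and above 0 in most of WT 57–74 and 3xTg 76–92, whereas Gnb1 and Gnao1 are high in nearly all cells.

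Kcnj9 (chr1:172321033-172329263, minus strand), which encodes GIRK3, was lower in 3xTg by both measures. Of 33 3xTg cells 10 had a count (30.3%, 15.6 to 48.7), and of 35 WT cells 18 (51.4%, 33.99 to 68.6). The lowest, median and highest levels were 0, 0 and 64.9 in 3xTg and 0, 1.14 and 207 in WT. The groups overlapped, and the 2 highest cells, WT 5 at 207 and WT 72 at 174, were both WT. Summed counts were 310 (8.44 CPM, 7.53 to 9.44) and 811 (23.8 CPM, 22.2 to 25.5). The mean differed by −1.04, or −1.51 relative to the median gene and the log2 ratio of sums was −1.50. With any 1 cell left out, the ratio stayed between −1.96 (without 3xTg 53) and −1.16 (without WT 72) and the relative difference between −1.65 and −1.30. Both runs gave the same sign, with relative differences of −1.29 and −1.76 and ratios of −1.35 and −1.65. At equal totals, Kcnj9 was found in 29.03% of the 3xTg cells and 53.3% of the WT cells.

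The Kcnj9 difference was larger in the cells with fewer genes detected. There 1 of 14 3xTg and 9 of 20 WT cells had counts, with summed levels of 0.268 and 31.99 CPM and a relative difference of −2.49. In the cells with more genes, 9 of 19 3xTg and 9 of 15 WT cells had one, the summed level was 14.1 CPM in 3xTg and 12.1 in WT, and the relative difference was −0.54, no longer past the fold. In the cells with a count, the median level was 15.9 in 3xTg and 19.2 in WT. The relative difference in those cells alone was −0.62, and with a pseudocount of 10 over all cells −0.76. Neither was past the fold. The number of genes detected differed between the genotypes as given above, and its part in the Kcnj9 values was not tested beyond this split.

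Kcnj3 (chr2:55437156-55595525, plus strand), the GIRK1 gene, was close to absent. One 3xTg cell (3xTg 48, 16 counts) and 2 WT cells had a count, and WT 60 held 57 of the 58 WT counts. The share of cells with a count was 3.03% in 3xTg (0.0767 to 15.8) and 5.71% in WT (0.700 to 19.2), and no direction can be read from 3 cells. The ratio of sums that placed Kcnj3 past the fold rested on WT 60, without which WT had 1 count.

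Kcnj5 (chr9:32314783-32344237, minus strand), which encodes GIRK4, known mainly from the heart atrium, was counted in most cells but at very low levels. It had a count in 25 of 33 3xTg cells (75.8%, 57.7 to 88.9) and 24 of 35 WT cells (68.6%, 50.7 to 83.1). The median level was 1.90 in 3xTg and 2.42 in WT, the highest 11.7 and 22.7, and the lowest 0 in both. At a minimum of 10 counts the shares were 9.09% and 22.9%. Summed counts were 139 (3.79 CPM, 3.18 to 4.47) and 195 (5.73 CPM, 4.96 to 6.59), with a log2 ratio of −0.60 and a difference of the mean of −0.21 (−0.68 relative). All 34 cells with more genes detected had a Kcnj5 count, as against 15 of the 34 with fewer. Its level went against the abundant transcripts over the 68 cells, with Spearman correlations of −0.54 with Gnb1, −0.51 with Th and −0.51 with Ddc, and 0.48 with the number of genes detected. These values share a library and its depth, and at such low counts they are no finding about Kcnj5.

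Other inward rectifiers were set beside the Kir3 genes. Of 11 such genes, 10 had a count and 6 were expressed. All 6 were lower in 3xTg by both measures, where 36.8% of the 2748 genes expressed through both genotypes, as these 6 were, lay below 0 by the mean and 59.5% by the sums, and 4 were past the fold lower by the mean, beside 199 of those 2748 genes (7.24%). Their median relative difference was −1.01 and their median log2 ratio −0.74. Kcnj10, a glial Kir4 channel gene, was the lowest by the mean (−1.47 relative) at 7.71 CPM in 3xTg and 16.9 in WT. Kcnj15 (−1.23), Kcnj16 (−1.02) and Kcnj2 (−1.004) followed, with log2 ratios of −0.63, −0.74 and −1.60. Each of the 6 genes was counted in at least 29 of 33 3xTg and 33 of 35 WT cells. Levels were low except for Kcnj16, with a median of 37.8 in 3xTg and 45.8 in WT. The other medians ran from 4.30 (Kcnj12) to 8.61 (Kcnj15) in 3xTg and from 4.70 to 13.3 in WT. Of the counts above 0, between 38.2% (Kcnj1) and 86.2% (Kcnj10) were not whole numbers. The part of such low and estimated counts in the shared direction was not tested. None of 4 genes for partner proteins of Kir3 channels and GABAB receptors was expressed by the rule.

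The subunit genes were also counted together in each cell, since a tetramer needs its subunits in one cell. Kcnj6 and Kcnj9 were both counted in 8 of 33 3xTg cells (24.2%, 11.1 to 42.3) and 10 of 35 WT cells (28.6%, 14.6 to 46.3). At 10 counts or more of both, these shares were 9.09% and 17.1%. Kcnj6 without Kcnj9 was found in 8 3xTg and 7 WT cells, and Kcnj9 without Kcnj6 in 2 3xTg and 8 WT cells. No count of any Kir3 gene was found in 7 3xTg and 6 WT cells, and Kcnj5 alone in 8 and 4. A cell with no count of a gene may still have held its RNA.

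**Figure D4:**
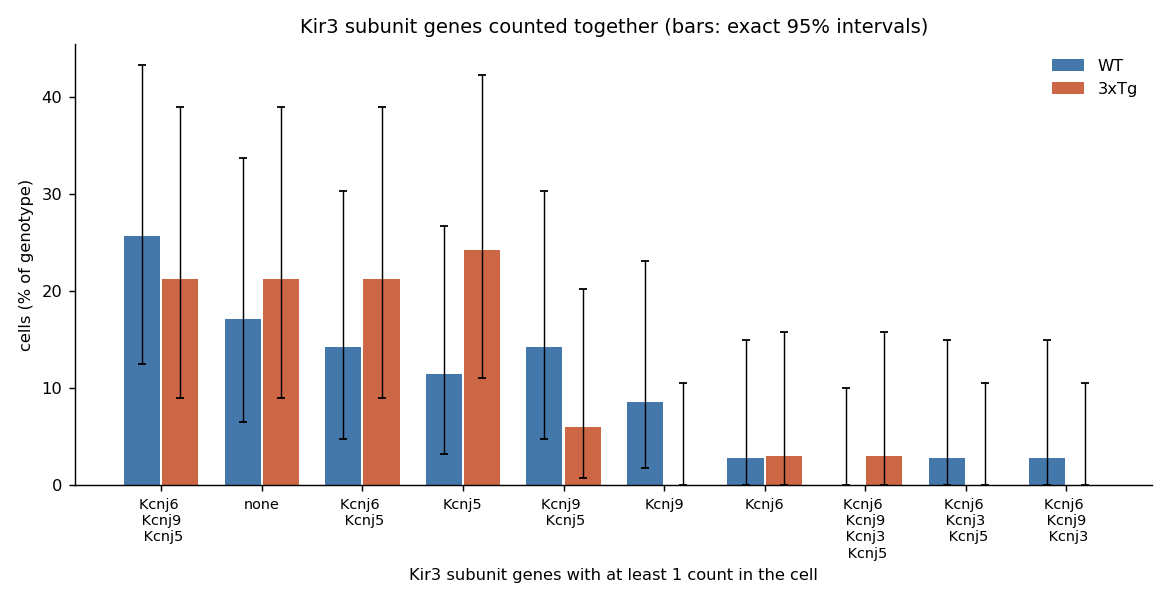
Share of cells (percent of the genotype) with at least 1 count of each combination of Kir3 subunit genes, for WT (blue, 35 cells) and 3xTg (orange, 33 cells). Bars on the columns are exact 95% intervals, which take the cells as independent draws and do not cover the spread between mice. Kcnj6 with Kcnj9 and Kcnj5 is the most frequent combination in WT (9 of 35 cells) and Kcnj5 alone in 3xTg (8 of 33).

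Receptor and channel were next sought in the same cell. Drd2 and Kcnj6 were both counted in 14 of 33 3xTg cells (42.4%, 25.5 to 60.8) and in 7 of 35 WT cells (8.44% to 36.9%). Drd2 without Kcnj6 was found in 8 and 6 cells, Kcnj6 without Drd2 in 2 and 10, and neither in 9 and 12. At a minimum of 10 counts for both, 8 3xTg and 5 WT cells had the pair. The levels of Drd2 and Kcnj6 were only weakly related over the 68 cells (Spearman 0.17, with 0.42 within 3xTg and −0.02 within WT). Drd2 itself correlated with the number of genes detected at 0.39.

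**Figure D5:**
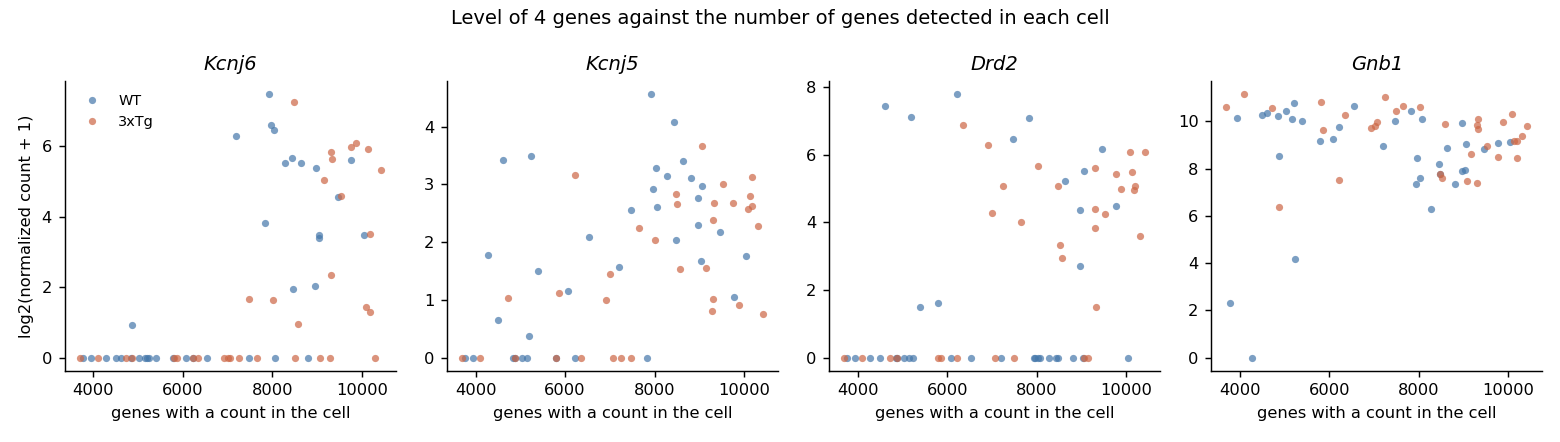
Level of Kcnj6, Kcnj5, Drd2 and Gnb1, as log2(normalized count + 1), against the number of genes with a count in each cell (blue WT, orange 3xTg). Kcnj6 is counted in 5 of the 34 cells with fewer genes and in 28 of the 34 with more, and Kcnj5 in all of the latter, whereas Gnb1 is high at both ends.

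The genes whose levels followed Drd2 most closely over the 68 cells, among the 3988 expressed, were Cyb561 (Spearman 0.56), a cytochrome b561 of secretory vesicles, Abi2 (0.55), an Abl interactor, and Gabbr1 (0.53), a subunit of the GABAB receptor, which is also known to act on Kir3 channels. Within 3xTg these were 0.41, 0.17 and 0.47 and within WT 0.56, 0.59 and 0.53. For Kcnj6 they were 4930539E08Rik (0.65), Slfn9 (0.63) and Pcdhb5 (0.60), at 0.49, 0.46 and 0.44 within 3xTg and 0.78, 0.74 and 0.74 within WT. The 3 genes nearest Kcnj6 themselves correlated with the number of genes detected at 0.56, 0.61 and 0.62, compared with 0.41, 0.31 and 0.24 for the 3 genes nearest Drd2. The cells share libraries, depth and unnamed mice, and the likeness is a description.

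Gnao1 (chr8:93810838-93969388, plus strand) encodes G alpha o, the most abundant Gi/o alpha subunit of brain, and it was the highest of the 3 alpha subunits. Counts were found in 32 of 33 3xTg and 33 of 35 WT cells. The median level was 197 in 3xTg and 124 in WT and the highest 582 and 852, with WT 5 and WT 20 the highest cells of all and both groups starting at 0. Summed counts of 7508 (205 CPM, 200 to 209) and 6338 (186 CPM, 182 to 191) gave a log2 ratio of 0.13, and the mean differed by 1.02 (0.55 relative). The ratio was −0.02 in the first runs and 0.28 in the second, and the relative difference 0.60 and 0.50. The larger mean difference went with more WT cells at low levels, since 31 3xTg cells and 27 WT cells had at least 10 counts. 4930488L21Rik lies on the opposite strand within Gnao1 and had 147 counts in 8 cells, and no source used here states that counting used the strand.

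Gnai1 (chr5:18265135-18360413, minus strand), for G alpha i1, was counted in 24 of 33 3xTg cells (72.7%, 54.5 to 86.7) and 17 of 35 WT cells (48.6%, 31.4 to 66.01). Its lowest, median and highest levels were 0, 25.6 and 238 in 3xTg and 0, 0 and 1070 in WT, where the top cell, WT 6, held 36.4% of the sum. The mean was higher in 3xTg by 0.98 (0.50 relative), while the sums of 1669 (45.5 CPM) and 2222 (65.3 CPM) gave a ratio of −0.52, or 0.09 without WT 6. The sign also turned between runs, with relative differences of 1.31 in the first and −0.98 in the second.

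Gnai2 (chr9:107614138-107635342, minus strand), for G alpha i2, was counted in 24 of 33 3xTg cells (72.7%, 54.5 to 86.7) and 20 of 35 WT cells (57.1%, 39.4 to 73.7). The lowest, median and highest cell stood at 0, 16.3 and 951 in 3xTg and at 0, 3.41 and 181 in WT. The sums of 2364 (64.4 CPM, 61.8 to 67.04) and 1021 (30.01 CPM, 28.2 to 31.9) gave a ratio of 1.10. The 2 highest cells, 3xTg 24 at 951 and 3xTg 43 at 554, had 3695 and 4870 genes detected, few for the genotype, and 3 cells held 60.7% of the 3xTg sum. Without 3xTg 24 the ratio was 0.71. The mean differed by 1.05 (0.58 relative). Within the first runs the mean differed by 1.601 (1.21 relative) and the ratio was 1.40, and within the second the mean differed by −0.0085 (−0.61 relative), close to no difference, and the ratio was −0.20.

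Gnb1 (chr4:155491361-155559269, plus strand), the G protein beta 1 subunit, was the most abundant of the 10 genes. All 33 3xTg and 34 of 35 WT cells had counts. The lowest, median and highest levels were 82.04, 890 and 2271 in 3xTg and 0, 546 and 1736 in WT, so the groups overlapped above the lowest WT cells. Only WT 96 had no count, and WT 11 had 2, cells in which 4273 and 3770 genes were detected. Sums were 30445 (829 CPM, 820 to 839) and 23722 (697 CPM, 688 to 706), a log2 ratio of 0.25, and the mean differed by 0.87 (0.40 relative). The mean was higher in 3xTg in both runs, by 0.73 and 0.52 (0.34 and −0.09 relative), the ratios of the sums were 0.40 and −0.02, and in thinned cells the relative difference was 0.03. Over the 68 cells Gnb1 went with Slc18a2 and Th (Spearman 0.71 for both) and with Gnao1 (0.58), genes that share the library and its depth, as Gnb1 correlated with the total count at 0.61.

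Other G protein genes were read by the same rule. Of 10 other alpha subunits 6 were expressed, with Gnaz (Gi family) past the fold higher (1.44 relative, log2 ratio 0.42) and Gna13 past it lower (−1.09 and −0.95). Gnb2 (1.61 relative, log2 ratio 0.68) and Gnb5 (1.23 and 0.50), the expressed genes among 4 other beta subunits, were both past the fold and higher. Of 12 gamma subunits 4 were expressed, Gng3 the highest at 1089 CPM in 3xTg and 996 in WT, and Gng4 was past the fold (1.65, log2 ratio 0.73). These counts of 2 of 6, 2 of 2 and 1 of 4 stand beside the 19.1% of expressed genes past the fold, and the lists are too short to read more from them. Gnaz, Gnb2, Gnb5 and Gng4 passed the filter through 3xTg alone, the group in which they were higher.

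RGS proteins speed the switching off of G alpha subunits. Of 20 genes for them and their anchor, 6 were expressed by the rule, and Rgs4 (453 and 286 CPM, 1.63 relative, log2 ratio 0.66) and Rgs2 (247 and 124 CPM, 1.21 relative) were past the fold and higher. The receptor kinases, arrestins and Ncs1, which tune D2 desensitization, had 3 expressed genes of 8 and none past the fold. Kir3 channels need the membrane lipid PIP2. Of 8 genes of its supply and breakdown 2 were expressed, and Plcb4, a phospholipase that Gq activates, was past the fold (200 and 85.7 CPM, 2.59 relative, log2 ratio 1.22). No adenylyl cyclase among 9, the enzymes that Gi inhibits, was expressed by the rule. Rgs4 and Plcb4 also passed the filter through 3xTg alone. List genes were called only if expressed, a condition not set for the 10 genes. Without it Rgs3 (1.88 relative, log2 ratio 1.13) and Snx27 (1.06 and 0.61), a partner of Kir3 channels, would also be past the fold. So would, lower in 3xTg, Gnb4 (−1.11 and −0.51), Adcy7 (−1.12 and −4.08), the microglial gene C1qb (−1.61 and −2.08) and Aldh1a1, given below. These genes are named here after their values were seen. Beside the 2 of 6 RGS genes and 1 of 2 PIP2 genes past the fold stand the 19.1% of all expressed genes. Of 5 genes that mark subtypes of dopamine neurons, 1 was expressed, Calb1 (calbindin), at 2007 CPM in 3xTg and 1293 in WT and past the fold higher (1.39 relative, log2 ratio 0.63). Aldh1a1, abundant but not expressed by the rule, was lower in 3xTg by the mean (−1.37 relative) and higher by the sums (log2 ratio 0.30). Over the 68 cells the Spearman correlations with the 5 genes ran from 0.01 (Calb1) to 0.37 (Slc17a6) for Drd2 and from 0.16 (Sox6) to 0.28 (Otx2) for Ntsr1, and Calb1 went with Gnb1 at 0.57 and with Kcnj5 at −0.57. The part of subtype in the genotype values was not tested.

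Ntsr1 (chr2:180499976-180544979, plus strand), the neurotensin receptor gene, had the largest difference of the 10 genes by the mean over cells. Of 33 3xTg cells 29 had a count (87.9%, 71.8 to 96.6), and of 35 WT cells 20 (57.1%, 39.4 to 73.7). The median level was 135 in 3xTg and 22.9 in WT, the highest 378 and 690, and the lowest 0 in both. Fewer 3xTg cells were at 0, while the 2 highest cells, WT 96 at 690 and WT 60 at 472, were WT, and the genotypes overlapped over the whole 3xTg range. The mean differed by 2.15 (1.67 relative). Sums were 5100 (139 CPM, 135 to 143) and 2978 (87.5 CPM, 84.4 to 90.7), with a log2 ratio of 0.67, short of the fold. Leaving out any single cell kept the relative difference between 1.55 and 1.91.

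Ntsr1 was higher in 3xTg in the first and the second runs, and in the cells with more and those with fewer genes detected. It was found in 8 of 17 cells of WT 1 to 22, 18 of 21 of 3xTg 24 to 55, 9 of 15 of WT 57 to 74 and 11 of 12 of 3xTg 76 to 92, and in all 3 of WT 94 to 96. The relative difference was 2.10 in the first runs and 2.02 in the second, with ratios of sums of 1.20 and 0.56. In the 3 cells of WT 94 to 96 the summed level was 229 CPM, above that of either 3xTg run (141 and 137). With more genes detected, 18 of 19 3xTg and 10 of 15 WT cells had it (157 and 86.4 CPM, 1.86 relative). With fewer, 11 of 14 and 10 of 20 did (113 and 88.3 CPM, 1.42 relative). Over the cells with a count, the median level was 163 in 3xTg and 103 in WT. In those cells alone the relative difference was 0.089, no longer past the fold. With a pseudocount of 10 in place of 1 it was 0.91, also short of the fold.

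Neurotensin itself (Nts) had no count in any of the 68 cells. Ntsr2, the second neurotensin receptor, known mainly from glia, had counts in 14 3xTg and 6 WT cells, summing to 16.6 and 52.9 CPM. More 3xTg cells thus had Ntsr2, while its sum was higher in WT. Without the 5 cells of each genotype that had a marker of another cell type, 2 of the 10 genes were again past the fold, Ntsr1 and Kcnj9.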

How the data were processed

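RNA of 68 single VTA dopamine neurons was analysed. The deposited values are estimated counts per gene, which the authors made with Strand NGS 4.0 from paired 100-base reads (trimming, alignment to RefSeq transcripts of mm10 at 90% identity or more, removal of duplicates). The deposited log2 values, normalized by the authors with DESeq2 (the submitters' processing notes name DESeq2 and mm10) and shifted per gene, served as an alternative.

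Size factors (median of ratios over 787 genes with a count in all cells) were calculated from the deposited counts, without rounding. Sums, thinning and edgeR's TMM factors used rounded counts. Coordinates of genes are those of the table. Levels per kilobase used the transcript with the longest coding region in GENCODE M21. Cells were not replicates, so no test was run. Alternatives are given in the closing section. The functions were tested on simulated data.

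The members, lists and rules were chosen with earlier results of these data known. All 10 genes are named. Of each list, expressed genes past the fold whose sums go the same way are named, up to 4, and the genes needed for identity. For Drd2 and Kcnj6, the 3 expressed genes with the highest Spearman correlation are named. The split by genes detected was added after the data were seen. No clustering or doublet calling was done. Python 3.11.15 (numpy 2.4.6, scipy 1.17.1, pandas 2.3.3, matplotlib 3.10.9) and R 4.3.3 with edgeR 4.0.16 were used.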

Additional observations from a re-analysis of the deposited data

How the results depend on the processing

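Leaving out each cell in turn kept 2 of the 10 genes past the fold, with relative differences of 0.66 to 0.99 for Drd2, −0.94 to −0.58 for Kcnj6, −1.65 to −1.30 for Kcnj9 and 1.55 to 1.91 for Ntsr1. CPM or TMM in place of size factors, thinned cells, cells free of the study's 4 markers and the authors' normalized values also gave 2 of 10. By summed counts the relative difference was −0.077 for Drd2 and 0.69 for Ntsr1. A pseudocount of 0.1 put 4 genes past the fold (Drd2 1.63, Kcnj9 −2.30, Ntsr1 2.53) and a pseudocount of 10 put 0 (0.12, −0.76 and 0.91). Cells with a count alone also gave 0 (Drd2 −0.60, Kcnj9 −0.62, Ntsr1 0.089). The first runs put 5 genes past the fold (Drd2, Kcnj9, Gnai1, Gnai2 and Ntsr1) and the second 3 (Kcnj9, Kcnj3 and Ntsr1), with Gnai1 at 1.31 and −0.98 and Gnai2 at 1.21 and −0.61. The cells with more genes detected put 3 genes past the fold (Drd2 1.88, Kcnj6 −1.01 and Ntsr1 1.86, with Kcnj9 at −0.54) and those with fewer 4 (Kcnj6 −1.18, Kcnj9 −2.49, Gnao1 1.11 and Ntsr1 1.42, with Drd2 at −0.43). Shares of all genes past the fold were calculated only for the main setting, the summed counts and the median of all genes with a count. The counts of genes past the fold under the other settings therefore say nothing about the 10 genes in particular. A minimum of 10 counts lowered the share of cells with Kcnj6 to 30.3% in 3xTg and 40% in WT, and that of 3xTg cells with both Kcnj6 and Kcnj9 to 9.09%. The cause of these changes was not tested, except where the setting itself takes out the cells at 0. Single cells left out aside, 22 values of Drd2, Kcnj6, Kcnj9, Ntsr1 and the number past the fold moved by over 1.5 times or out of their interval. Another 68 of these values did not. Of the values of the other genes under these settings, 16 moved so and 92 did not. No paired analysis was possible, since the labels name no mouse and the genotypes come from lines bred apart.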
